A study of Homo sapiens with 24 samples.

Results

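Genes for 10 proteins of the endoplasmic reticulum (ER) were followed across 24 arrays with 2 dyes each: the chaperones HSPA5 and HSP90B1, the co-chaperones DNAJB9 and SDF2L1, the disulfide enzymes or partners PDIA4 and CRELD2, the degradation factors HERPUD1, SEL1L and EDEM1, and the transcription factor XBP1. The genes form a list of names that was drawn up with earlier results of these data known, and no limit on a measured value entered the list. They were 10 of 33407 names on the design used for 16 arrays and 10 of 36337 names on the design used for 8 arrays, and the same 13 probes carried them on both. SEL1L had 3 probes, HSP90B1 had 2 and the others 1 each.

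On each array RNA of treated cells carried Cy5 and that of control cells of the same line carried Cy3, with no dye swap on any array. Every treatment was measured on 1 array for each cell line. The study asked how genistein, a soy isoflavone, acts on prostate cancer cells, and the other arrays hold other treatments deposited with it. PC3, DU145 and LNCap are prostate cancer lines, A498 and 786O are renal cell carcinoma lines, and FaDu and SAS are head and neck squamous cell carcinoma lines. On the 16-array design, genistein was compared in PC3 and DU145 with control cells that the labels call untreated and the study's methods call vehicle-treated, and wogonin, a plant flavone, with dimethylsulfoxide (DMSO) in SAS and FaDu. On that design siRNA against CAV2 (si-CAV2, in A498 and 786O) or LAMB3 (si-LAMB3, in FaDu and SAS) was compared with control siRNA, and miR-145 (PC3, DU145 and LNCap), miR-375 (FaDu), miR-23b, miR-24 and miR-27b (PC3) and miR-29a (SAS) with control miRNA. On the 8-array design, miR-143 (DU145 and PC3) and miR-27b (786O and A498) were compared with control miRNA, si-GOLM1 (DU145 and PC3) with control siRNA, and the chemokine CXCL10 at 12 and 24 h with untreated 786O cells. The transfections used a lipid reagent, and the labels give neither doses nor the time of any other treatment.

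Proteins that enter the ER are folded by chaperones and disulfide isomerases, and those that fail to fold are sent back to the cytosol for degradation. When unfolded protein builds up, the sensors IRE1, PERK and ATF6 set off the unfolded protein response. IRE1 splices the XBP1 transcript into the form that encodes an active transcription factor, ATF6 and spliced XBP1 raise the transcription of chaperone and degradation genes, and PERK acts through ATF4 and DDIT3 (CHOP). The array measures total XBP1 RNA and does not tell the spliced form from the unspliced one.

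The upstream sequences of these genes are shown because the response is known to act through the ER stress response element (ERSE), CCAAT and CCACG separated by 9 bases, and the shorter ERSE-II, ATTGG and CCACG separated by 1 base. All 10 genes were found in the RefSeq promoters on GRCh38.p14. In the 250 bases upstream of the annotated starts, searched on both strands, HSPA5, CRELD2, HSP90B1 and XBP1 held an ERSE, and HERPUD1 and SDF2L1 held an ERSE-II. An ERSE lay in 0.074% and an ERSE-II in 0.0513% of all 35116 promoters searched. DNAJB9, SEL1L, EDEM1 and PDIA4 held neither. The letters of the core XBP1 motif TGACGTGG were found upstream of none of the 10 genes and in 0.612% of all promoters. The matches, with 10 bases on either side, read 5′ to 3′ along the gene as follows, with the matched element in capitals.
HSPA5 (chr9:125241381-125241419, minus strand): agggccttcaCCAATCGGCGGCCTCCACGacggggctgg
XBP1 (chr22:28800593-28800631, minus strand): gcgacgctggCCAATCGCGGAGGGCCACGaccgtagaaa
CRELD2 (chr22:49918544-49918582, plus strand): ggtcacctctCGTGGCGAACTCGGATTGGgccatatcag
HSP90B1 (chr12:103930206-103930349, plus strand): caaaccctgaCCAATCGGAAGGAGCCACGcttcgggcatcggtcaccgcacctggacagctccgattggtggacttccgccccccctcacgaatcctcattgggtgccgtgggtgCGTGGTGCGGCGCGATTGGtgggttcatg
HERPUD1 (chr16:56932015-56932045, plus strand): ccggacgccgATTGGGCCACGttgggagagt
SDF2L1 (chr22:21642104-21642134, plus strand): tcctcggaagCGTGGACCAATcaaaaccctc
HSP90B1 held 2 elements, 1 on each strand, and the CRELD2 and SDF2L1 elements lay on the strand opposite to the gene. The HSPA5 element lay 66 to 48 bases and the XBP1 element 52 to 34 bases before the start. A match describes the letters and was not tested as a binding site.

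On the hg19 coordinates of the array annotation, the probes read for these genes lay at chr9:127997149-127997208 (HSPA5), chr16:56977700-56977759 (HERPUD1), chr7:108214515-108214574 (DNAJB9), chr14:81939240-81939299 (SEL1L), chr22:21998511-21998570 (SDF2L1), chr22:50320918-50320977 (CRELD2), chr12:104341536-104341595 (HSP90B1), chr3:5260840-5260899 (EDEM1), chr22:29190733-29190792 (XBP1) and chr7:148700904-148700963 (PDIA4). Of the 13 probes, 12 were well above background in both channels of all arrays. The other one, a SEL1L probe at chr14:81938061-81938120, was so on 8 of 16 and 5 of 8 arrays, and the brightest probe of each gene was used.

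A log2 ratio is that of treated over control signal, so that 1 unit is a 2-fold difference. A level is the log2 signal of one channel minus the 75th percentile of that channel, and is compared only within a gene. In RNA of whole cultures, fewer cells that express a gene and less RNA per cell cannot be told apart. The error of 1 log2 ratio in the scanner software's model was 0.20 to 0.45 for the probes used. Where a treatment was measured on several arrays, a limma fit with Benjamini-Hochberg adjustment over all names gave an adjusted p, called at 0.05. Its replicates are cell lines or times. The SE and p rest on a spread pooled over all such treatments of the design. They do not show how closely the lines of 1 treatment agree. Where a treatment was measured on 1 array there was no test, and a name past 1.0 was called by size. In the control channels, the squamous keratins KRT5 and KRT14 were well above background on all 3 FaDu and all 3 SAS arrays, and KLK3, a prostate luminal marker, was at 2.21 in LNCap and -5.84 in PC3, where it was not well above background. PAX8, a kidney marker, was at 1.39 in A498 and 2.30 in 786O. The knocked-down genes were lower on their own arrays, CAV2 by log2 ratios of -3.80 in A498 and -3.20 in 786O, LAMB3 by -2.50 in FaDu and -0.89 in SAS, and GOLM1 by -3.02 in DU145 and -4.15 in PC3. PC3 controls differed between the designs in CDH1 (mean level -0.94 over 5 arrays and 3.86 over 2) and KRT6A (-6.64 and 2.01), so levels were not compared across designs.

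**Figure D1:**
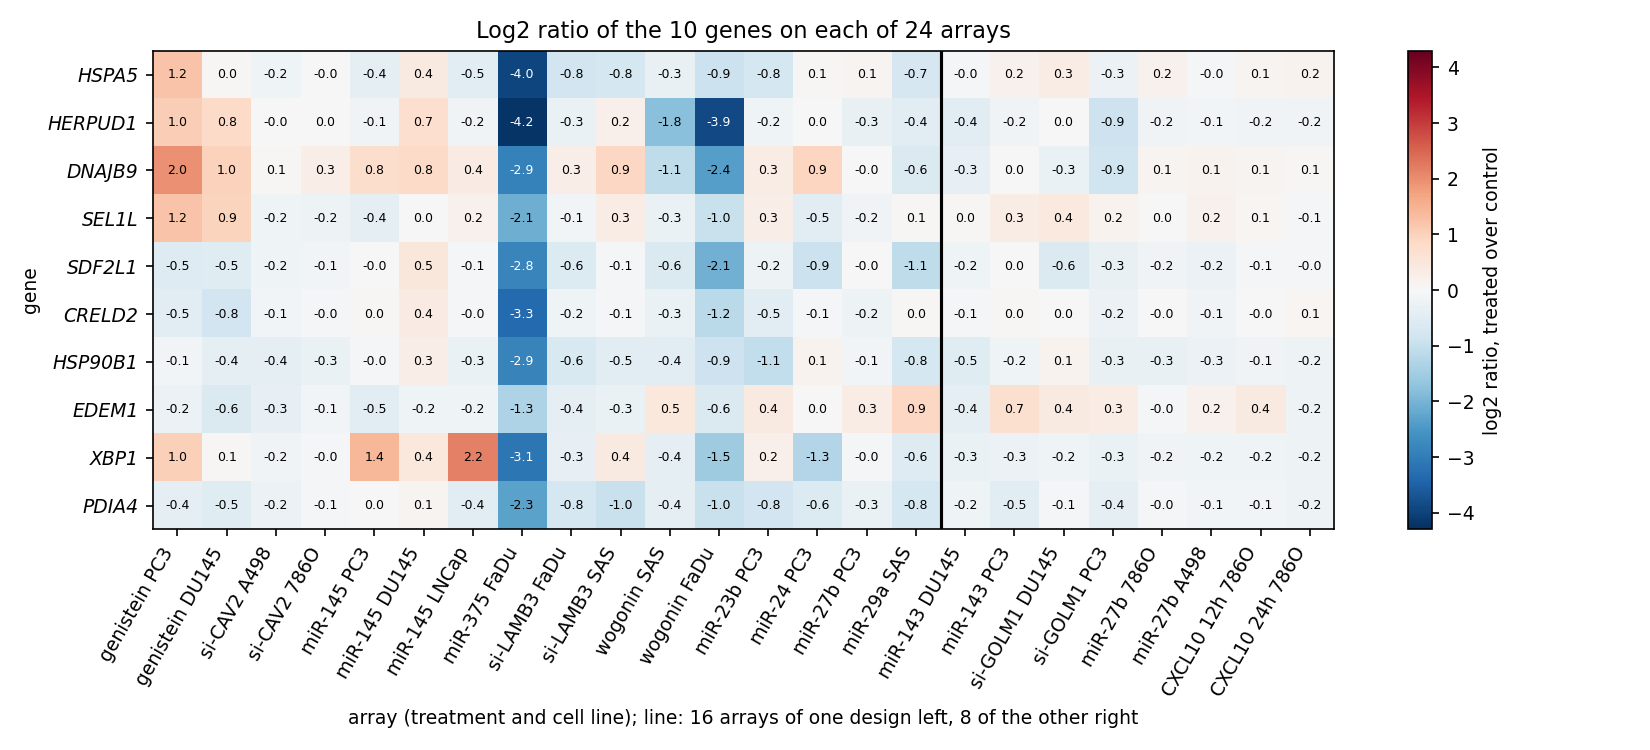
Log2 ratio of treated over control signal for the 10 genes (rows, brightest probe) on each of the 24 arrays (columns, 1 array per treatment and line), with the value in each cell. All 10 genes were negative on the miR-375 array of FaDu (-4.22 to -1.32) and on the wogonin array of FaDu (-3.88 to -0.63), whereas the ratios on the 8 arrays right of the line lay between -0.89 and 0.70.

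The lowest log2 ratios of the chaperone and degradation genes were those of miR-375 in FaDu cells. HERPUD1, a membrane protein of the degradation machinery, had a log2 ratio of -4.22. The ER Hsp70 chaperone HSPA5 (BiP) had a log2 ratio of -3.95, and the ER Hsp90 chaperone HSP90B1 (GRP94) one of -2.88. CRELD2, a secreted ER stress marker, was at -3.33 and XBP1 at -3.11. DNAJB9 (ERdj4), a co-chaperone of HSPA5, was at -2.91 and SDF2L1, part of a chaperone complex, at -2.83. The smallest differences were those of PDIA4, an isomerase (-2.29), SEL1L, the adaptor of the HRD1 ligase (-2.08), and EDEM1, which directs glycoproteins to degradation (-1.32). All 10 genes were thus lower past 1.0, where 12.4% of all names were lower and 10.2% were higher by that measure. The other SEL1L probes (-2.83 and -2.09) and the other HSP90B1 probe (-2.48) were lower too. The median of the 10 genes was -2.89, against 0.04 for all 21452 names.

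Other ER lists had smaller medians on that array. Of ER folding genes, 9 of 15 were lower past 1.0 and none was higher, with a median log2 ratio of -1.24. ERO1LB, an oxidase that renews disulfides (-3.41), MANF, an ER-resident stress factor (-2.23), and HYOU1, an ER chaperone (-2.22), were lowest. Of ER degradation genes, 5 of 12 were lower, with a median of -0.79, led by the ubiquitin ligase SYVN1 (-2.02). Genes of translocation and transport were lower in 3 of 17 cases, with a median of -0.58. Of the sensors and proteases 2 of 9 were lower, CREB3L2 (-2.04) and EIF2AK3, which encodes PERK (-1.58). In the ATF4 and CHOP branch all 12 genes were lower, with a median of -2.53 and DDIT3 at -3.72. The cytosolic and mitochondrial heat shock genes differed the other way. Of these, 5 of 11 were higher and none lower, with a median of 0.93, and HSPA8 was at 2.15. Cell type markers moved on that array too. Of 4 squamous markers 3 were lower past 1.0, KRT6A (-3.36), KRT14 (-2.36) and KRT5 (-1.32), with a median of -1.84, and of 4 epithelial markers 3 were lower, CDH1 (-1.95), KRT8 (-1.36) and KRT18 (-1.33), with a median of -1.34. The mean control level of the squamous markers was 3.26 on the miR-375 array, 3.04 on the wogonin array and 2.55 on the si-LAMB3 array of FaDu, and their mean treated level was 1.45, 3.28 and 2.65. For the epithelial markers the mean control level was 5.40, 4.99 and 5.01 and the mean treated level 4.37, 4.41 and 5.10. The squamous markers thus had their lowest treated level on the miR-375 array, and all 8 markers were well above background in both channels there. The part of the markers in the low ER ratios was not tested.

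The control channel of this array was the highest of the 3 FaDu controls, followed by that of the wogonin array. The mean level of the 10 genes in the control channel was 5.45 on the miR-375 array, 4.24 on the wogonin array and 2.86 on the si-LAMB3 array. In the treated channel it was 2.56, 2.70 and 2.50. The FaDu control channels thus spanned 2.58 and the treated channels 0.20. For HSPA5, the control level was 4.31 on the miR-375 array, 2.48 on the wogonin array and 1.54 on the si-LAMB3 array, and the treated level was 0.36, 1.55 and 0.73. For HERPUD1, the control level was 7.90, 7.37 and 3.67, and the treated level 3.69, 3.49 and 3.40. For CRELD2, the control level was 8.29, 6.25 and 5.27, and the treated level 4.97, 5.09 and 5.11. For all 3 genes the miR-375 control was the highest of the FaDu controls, while the treated channels of HERPUD1 and CRELD2 lay close together. HSPA5 had its lowest treated level on the miR-375 array and its highest on the wogonin array.

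Over the 10 genes, the miR-375 control lay above the si-LAMB3 control by 1.93 to 4.23 (median 2.44), in 10 of 10 genes. The miR-375 treated channel lay within 1 unit of the si-LAMB3 control for 9 of 10 genes, with a median difference of -0.24. In the control channel of the miR-375 array the ATF4 and CHOP branch had a mean level of 4.39, against 4.03 in the wogonin control and 1.20 in the si-LAMB3 control. Its heat shock genes were at 4.02, against 4.5 and 4.58 in those controls. The miR-375 array was on 1 slide and scan, and the other FaDu arrays on another, so that slide and array cannot be told apart here. The control of the miR-375 array correlated with the other FaDu controls at 0.96 and 0.97 over probes, and with controls of other lines at 0.87 to 0.93. The treated channel of the miR-375 array correlated with these other FaDu controls at 0.98, and their own treated channels with them at 0.98 to 0.99. Whether the low ratios come from the treated or from the control cells was not tested. The labels name the dyes in the same order for all arrays. Were the channels of the miR-375 or the wogonin array of FaDu exchanged or mislabelled, every ratio on it would have the opposite sign, and this was not tested.

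**Figure D2:**
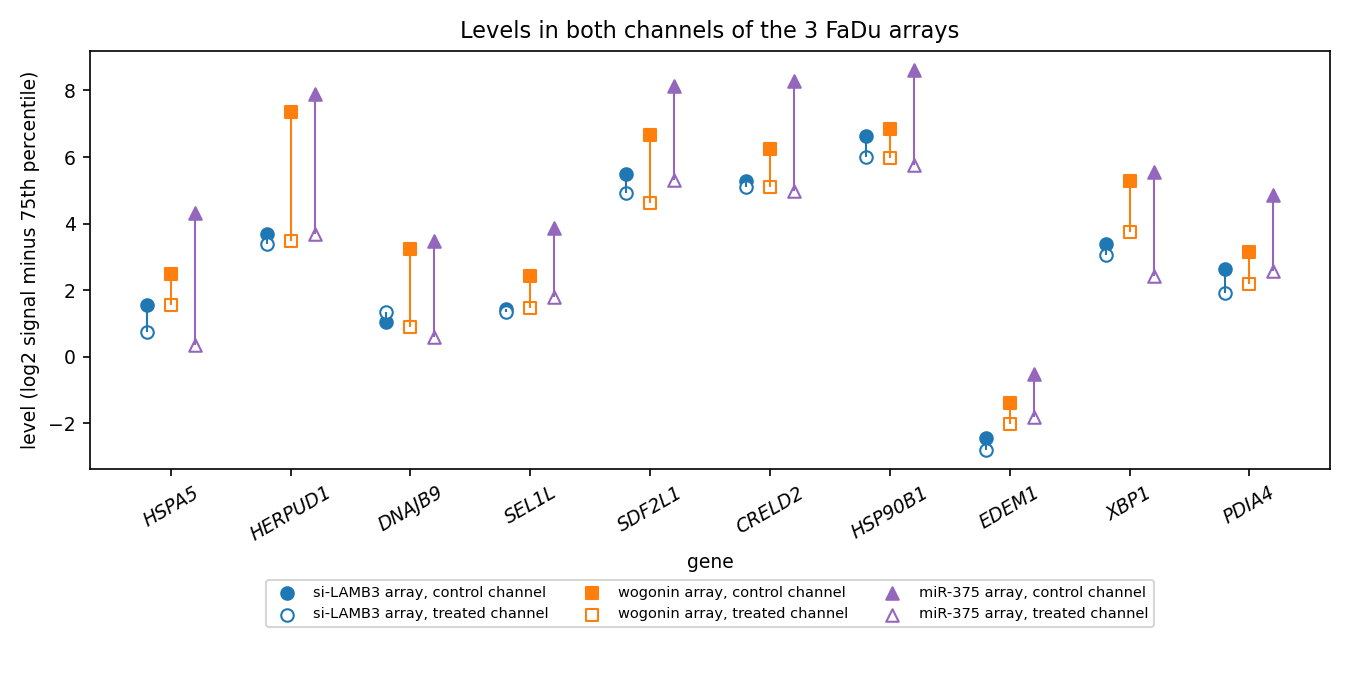
Level (log2 signal minus the 75th percentile of the channel) of each gene in the control channel (filled) and the treated channel (open) of the 3 FaDu arrays, each array with its own marker and colour. The controls of the miR-375 and wogonin arrays lay above the si-LAMB3 control for all 10 genes, and the open markers lay closer together than the filled ones, with mean levels of 2.56, 2.70 and 2.50.

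HERPUD1, DNAJB9 and SDF2L1 had negative log2 ratios of wogonin over DMSO in both head and neck lines. The log2 ratio of HERPUD1 was -1.80 in SAS and -3.88 in FaDu, with a mean of -2.84 (SE 0.42, limma adjusted p 0.0187). DNAJB9 was at -1.09 and -2.36, with a mean of -1.73 (SE 0.33, limma adjusted p 0.0321). SDF2L1 was at -0.63 and -2.05, with a mean of -1.34 (SE 0.30, limma adjusted p 0.0499). These 3 of the 10 genes passed the test as lower, beside 1.1% of all 20133 names, and none passed as higher, beside 2.41%. None of the 3 passed when only the wogonin arrays were fitted, and fewer passed with no filter on dim probes. SDF2L1 also missed the threshold when the mean ratio of the other treatments on the design was subtracted. At an unadjusted p under 0.05, 7 of the 10 genes were lower, beside 6.61% of all names, and 0 higher, beside 15%.

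Of the other genes, HSP90B1 (-0.67), PDIA4 (-0.70) and CRELD2 (-0.72) had limma adjusted p values of 0.0738, 0.0751 and 0.0941. XBP1 was at -0.40 in SAS and -1.53 in FaDu, and HSPA5 at -0.33 and -0.93. EDEM1 was at 0.45 in SAS and -0.63 in FaDu. In FaDu 5 of 10 genes were lower past 1.0, beside 2.91% of all names, and in SAS 2 of 10, beside 5.53%. Each of the 10 genes had a lower ratio in FaDu than in SAS, and this difference between lines was not tested.

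The FaDu array of wogonin is the second one with a high control channel, in which HERPUD1 and DNAJB9 lay 3.69 and 2.21 above the si-LAMB3 control. Its treated channel lay within 1 unit of the si-LAMB3 control for all 10 genes, with a median difference of -0.17. Whether the low wogonin ratios come from the treated or from the control cells was not tested. Without that array 1 wogonin array is left, that of SAS, which allows no test of its own. In SAS the mean level of the 10 genes was 2.56 in the DMSO control, 2.12 in the si-LAMB3 control and 2.41 in the miR-29a control, and 2.03, 2.04 and 2.03 in the treated channels. The SAS treated channels thus lay within 0.013 of each other, and the control channels spanned 0.44.

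Among related genes, the folding factors DNAJC3 (-0.79) and DNAJB11 (-0.77), both co-chaperones of HSPA5, passed the wogonin test as lower, with limma adjusted p values of 0.0349 and 0.0371. They were 2 of 14 folding genes tested, whose median was -0.24. No degradation gene (of 12), sensor (of 8) or gene of the ATF4 and CHOP branch (of 12) passed the test. In the last list DDIT3 had a mean log2 ratio of -2.03 and a limma adjusted p of 0.0857. Of 17 transport genes ARFGAP3 passed as lower (-0.75, limma adjusted p 0.0365).

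**Figure D3:**
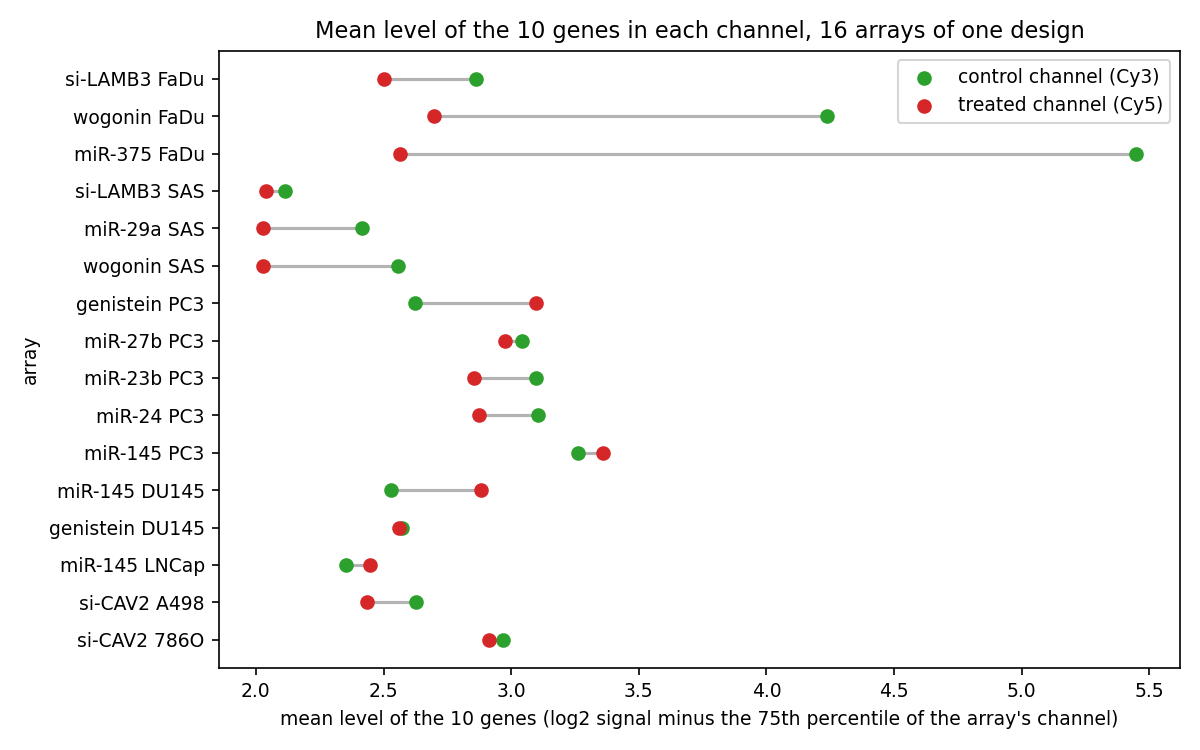
Mean level of the 10 genes (log2 signal minus the 75th percentile of the channel, horizontal axis) in the control channel (green) and the treated channel (red) of each of the 16 arrays of one design, ordered by cell line, with a line joining the channels of an array. The control channels of FaDu spread from 2.86 to 5.45 and its treated channels from 2.50 to 2.70.

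Under genistein the 10 genes split. The log2 ratio of DNAJB9 was 1.96 in PC3 and 1.0 in DU145, with a mean of 1.48 (SE 0.33, limma adjusted p 0.0296). SEL1L was at 1.24 and 0.95, with a mean of 1.09 (SE 0.20, limma adjusted p 0.0182). These 2 of 10 genes rose, beside 4.72% of all 20635 names, and none fell, beside 4.95%. At an unadjusted p under 0.05, 2 of the 10 genes were lower, CRELD2 and PDIA4, beside 12.9% of all names, and 2 higher, beside 14.7%. The call of SEL1L was lost when its 3 probes were averaged (0.89, limma adjusted p 0.0986). Without the PC3 array 1 genistein array is left, which allows no test of its own, and there DNAJB9 was at 1.0 and SEL1L at 0.95. The third SEL1L probe was at 1.15 in PC3 and 0.38 in DU145.

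HERPUD1 was at 1.04 in PC3 and 0.83 in DU145 (limma adjusted p 0.193). HSPA5 was at 1.24 in PC3 and 0.04 in DU145, and XBP1 at 1.01 and 0.06. On the PC3 array 5 of 10 genes were higher past 1.0, beside 10.4% of all names, and on the DU145 array 1 of 10, beside 5.77%. Whether the response of HSPA5 and XBP1 differed between the lines was not tested, with 1 array each.

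The other 5 genes had negative ratios in both lines. CRELD2 was at -0.50 in PC3 and -0.84 in DU145 (limma adjusted p 0.0799), SDF2L1 at -0.55 and -0.53, PDIA4 at -0.42 and -0.53, EDEM1 at -0.25 and -0.63, and HSP90B1 at -0.13 and -0.39. Of the genes with positive ratios, HSPA5 and XBP1 held an ERSE, HERPUD1 an ERSE-II, and DNAJB9 and SEL1L neither. Of those with negative ratios, CRELD2 and HSP90B1 held an ERSE, SDF2L1 an ERSE-II, and PDIA4 and EDEM1 neither. The part of these elements in the ratios was not tested. In the ATF4 and CHOP branch 7 of 12 genes rose and none fell, with a median of 2.16, DDIT3 at 3.16 and TRIB3, a pseudokinase of that branch, at 3.11. Of 14 folding genes and 12 degradation genes none passed the test, with medians of 0.05 and 0.20. Of 9 sensors and proteases 1 rose, the sensor ATF6 (0.83, limma adjusted p 0.0131). Among 11 heat shock genes HSPA1A fell (-1.03, limma adjusted p 0.0476).

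XBP1 had positive ratios on each of the 3 arrays of miR-145. The log2 ratio of XBP1 was 1.43 in PC3, 0.44 in DU145 and 2.18 in LNCap, with a mean of 1.35 (SE 0.34, limma adjusted p 0.0537). The mean thus missed the threshold. It passed without the DU145 array (1.81, limma adjusted p 0.0289), but that array held the lowest of the 3 ratios, so leaving it out had to raise the mean. The PC3 and LNCap ratios both lay above the mean, so leaving out either of them lowers it. The next highest ratio was that of DNAJB9, at 0.76, 0.83 and 0.37 (limma adjusted p 0.180). The ratios of the other genes varied between the lines. In DU145, where XBP1 was lowest, 9 of the 10 genes were positive with a median of 0.38, among them HERPUD1 (0.73), SDF2L1 (0.47), HSPA5 (0.39) and CRELD2 (0.37), and EDEM1 was at -0.19. In LNCap, where XBP1 was highest, 7 of the 10 were negative. There HSPA5 was at -0.49, PDIA4 at -0.44, HSP90B1 at -0.28, EDEM1 at -0.20 and HERPUD1 at -0.15, and SEL1L was at 0.18. In PC3, 6 of the 10 were negative, from EDEM1 (-0.47) to SDF2L1 (-0.02). None of the 10 genes passed the test as higher or lower, beside 3.33% of all 18728 names in each direction. At an unadjusted p under 0.05 there were 2 higher, XBP1 and DNAJB9, beside 9.95% of all names, and 0 lower, beside 13%. The sensor-like factor CREB3L2 fell (-0.88, limma adjusted p 0.0138).

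PDIA4 fell after the LAMB3 knockdown. Its log2 ratio was -0.75 in FaDu and -0.97 in SAS, with a mean of -0.86 (SE 0.18, limma adjusted p 0.0276). This was 1 of 10 genes, beside 4.16% of all 20035 names. The call was lost when the mean ratio of the other treatments on the design was subtracted (-0.31, limma adjusted p 0.381). Without either array 1 array is left, which allows no test of its own. None passed as higher, beside 3.61%. At an unadjusted p under 0.05, 3 of 10 were lower, beside 11.6%, and 0 higher, beside 13.8%. HSPA5 was at -0.84 and -0.76 (limma adjusted p 0.147), and HSP90B1 at -0.65 and -0.50 (limma adjusted p 0.0787). DNAJB9 was at 0.27 and 0.90. The lectin chaperone CANX fell with PDIA4 (-0.57, limma adjusted p 0.0460). In the ATF4 and CHOP branch the median of 11 genes was 1.11, and CHAC1, a glutathione-degrading enzyme of that branch, rose (2.43, limma adjusted p 0.0341).

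**Figure D4:**
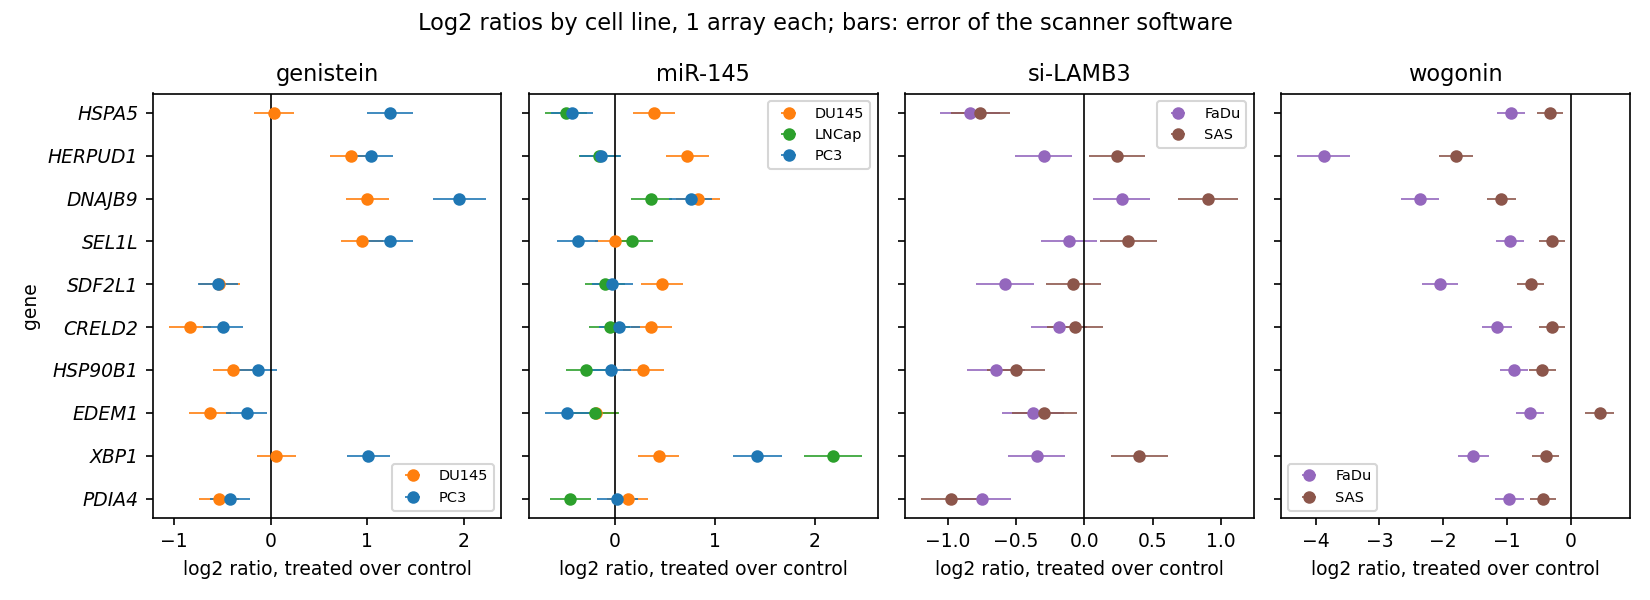
Log2 ratio of treated over control (horizontal axis) of the 10 genes for genistein, miR-145, si-LAMB3 and wogonin, 1 point per cell line and array; the bars are the scanner software's error for 1 array, and the horizontal scales differ. Under genistein DNAJB9, HERPUD1 and SEL1L were positive by 0.83 or more in both lines and CRELD2, SDF2L1, HSP90B1, EDEM1 and PDIA4 negative, whereas under wogonin EDEM1 in SAS (0.45) was the only positive value.

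The other miRNAs of the 16-array design were measured on 1 array each. Under miR-24 in PC3, XBP1 was at -1.27, SDF2L1 at -0.94 and DNAJB9 at 0.93. XBP1 was thus the 1 of 10 genes lower past 1.0, beside 11% of all names, and none was higher, beside 14.7%. Of the sensors and proteases 4 of 9 were lower on that array, including ATF6B (-2.50), CREB3L2 (-1.96) and WFS1 (-1.44). Of 15 folding genes 3 were higher and 2 lower, with a median of 0.04. FKBP11, a prolyl isomerase, was at -1.76, HYOU1 at -1.72 and SIL1, a nucleotide exchange factor of HSPA5, at 1.51. In the ATF4 and CHOP branch 5 of 12 were higher and none lower, with SLC7A11, a cystine transporter, at 2.22. Under miR-23b in PC3, HSP90B1 was lower past 1.0 (-1.07, and -1.12 on its other probe), 1 of 10 beside 5.03% of all names. PDIA4 was at -0.83 and HSPA5 at -0.75 there. None was higher, beside 6.54%. The signal sequence receptor gene SSR3 was at -2.75 on that array.

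Under miR-29a in SAS, SDF2L1 was lower past 1.0 (-1.10), 1 of 10 beside 3.67% of all names, and none was higher, beside 6.99%. HSP90B1, PDIA4 and HSPA5 were at -0.77, -0.75 and -0.73, and EDEM1 at 0.89. In the ATF4 and CHOP branch 6 of 12 genes were higher past 1.0 on that array and none lower, with a median of 0.79. Under miR-27b in PC3 the 10 genes lay between -0.33 (HERPUD1) and 0.32 (EDEM1), and none was past 1.0, beside 8.93% of all names higher and 5.06% lower. The calls of HSP90B1 under miR-23b and of SDF2L1 under miR-29a were lost when the mean ratio of the other treatments on the design was subtracted (-0.58 and -0.54). PDIA4 was negative on every array of slide 2, and HSP90B1 on every one but the miR-24 array (0.15). On slide 1 both genes were negative under genistein, si-CAV2 and miR-375 too. These ratios carry no dye swap.

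After the CAV2 knockdown the 10 genes lay between -0.42 (HSP90B1 in A498) and 0.27 (DNAJB9 in 786O). None passed limma's test as higher or lower, at the adjusted p, beside 0% and 0.139% of all names, or at an unadjusted p under 0.05, beside 1.92% and 3.1%. In the ER folding, degradation, transport and sensor lists and in the ATF4 and CHOP branch, none passed the adjusted test there either.

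On the 8-array design 75 of 80 ratios of the 10 genes were within 0.5 of no difference. The lowest were those of HERPUD1 (-0.89) and DNAJB9 (-0.86) under si-GOLM1 in PC3, where DU145 had 0.02 and -0.27. SDF2L1 was at -0.62 in DU145 and -0.32 in PC3, with a mean of -0.47 (SE 0.09, limma adjusted p 0.0966). EDEM1 was at 0.70 under miR-143 in PC3 and at -0.39 in DU145. XBP1 was negative on all 8 arrays, from -0.30 to -0.15.

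None of the 10 genes passed limma's adjusted test on that design. It called 0.157% of all names higher and 0.213% lower for miR-143, 0.226% and 0.368% for si-GOLM1, 0.27% and 0.574% for miR-27b in the renal lines, and 0.0968% and 0.143% for CXCL10. For miR-143, 0 of 10 genes were higher at an unadjusted p under 0.05, beside 9.19% of all names, and 3 lower, beside 7.37%. For si-GOLM1, 1 was higher, beside 10.5%, and 3 lower, beside 9.31%. For miR-27b in the renal lines, 0 were higher, beside 8.38%, and 1 lower, beside 6.49%. For CXCL10, 0 were higher, beside 5.48%, and 1 lower, beside 3.5%. Between 12 and 24 h of CXCL10 EDEM1 was at 0.40 and -0.23, and the other 9 genes lay between -0.22 and 0.15.

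The control channels allowed the lines to be compared. Where a line had several controls, they were not all mock-treated in the same way. Those of FaDu and SAS were control miRNA, control siRNA and DMSO cells. Those of PC3 on the 16-array design were control miRNA cells and the genistein control. The SDs, SEs and p-values of the line comparisons thus include such differences and do not give the spread between like replicates of a line. The 3 PC3 controls of miR-23b, miR-24 and miR-27b differed by an SD of 0.185 to 0.196 over 17044 probes, against 0.535 to 0.635 for the other pairs of PC3 controls. They may be 1 RNA and were counted as 1 sample in each mean. The limma fits below took them as 3 samples, and the values with their average as 1 sample are given beside. CRELD2 was highest in FaDu, with a mean level of 6.61 ± 1.54 (SD, n = 3). It was at 3.31 in 786O and 3.30 in A498 (1 array each), 3.27 ± 0.36 in PC3 (SD, n = 3) and 3.17 in LNCap. DU145 (2.72 ± 0.13, SD, n = 2) and SAS (2.40 ± 0.30, SD, n = 3) were lowest. The lowest of the 6 FaDu channels, treated ones included (4.97), was above the highest of the 26 channels of other lines (3.71). Below FaDu, the A498, 786O and LNCap values lay within the PC3 range, and the DU145 and SAS ranges overlapped.

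By the limma fit of the 16 arrays, CRELD2 was higher in FaDu than in SAS by 4.20 (SE 0.56, adjusted p 2.06e-04), than in PC3 by 3.34 (SE 0.50, adjusted p 1.94e-04) and lower in DU145 than in FaDu by 3.89 (SE 0.62, adjusted p 7.17e-04). SEL1L was higher in FaDu too, by 1.76 against SAS (SE 0.46, limma adjusted p 0.0157) and by 1.87 against PC3 (SE 0.41, limma adjusted p 0.00309). With the 3 PC3 controls as 1 sample, CRELD2 differed from PC3 by 3.33 (SE 0.61, limma adjusted p 0.00213) and SEL1L by 1.89 (SE 0.50, limma adjusted p 0.0161). Between FaDu and SAS 7 of the 10 genes differed, all higher in FaDu, beside 23.8% of all names, and 5 did with the PC3 controls as 1 sample, beside 20%. Between FaDu and PC3 and between FaDu and DU145, 3 of 10 differed, beside 41.3% and 26.2%, and 2 of 10 did in each with the PC3 controls as 1 sample, CRELD2 and SEL1L, beside 32.5% and 22.2%. The FaDu controls include the high ones of the miR-375 and wogonin arrays. On the si-LAMB3 array of FaDu 5 of the 7 genes lay above all SAS controls, among them CRELD2 (5.27, against 2.15 to 2.73 in SAS) and SEL1L (1.43, against 0.52 to 1.01). SDF2L1 (5.48, against 4.93 to 5.58) and XBP1 (3.38, against 2.50 to 3.40) lay within the SAS range there, so that only the 2 high controls set them above SAS.

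Over all 7 lines 3 of the 10 genes differed by limma's F test (CRELD2, SEL1L and HSPA5), beside 66.8% of all 23778 names. With the 3 PC3 controls as 1 sample they were 2, beside 57.5%, and HSPA5 had a limma adjusted p of 0.0998. Without the miR-375 array they were 5, without the si-LAMB3 array of FaDu 9, and without the wogonin array of FaDu 1. HSPA5 was lowest in LNCap, at -0.46 in the control and -0.96 in the treated channel, where the 30 channels of other lines lay at 0.36 or above. It was at 2.78 ± 1.41 in FaDu (SD, n = 3), 2.22 ± 0.72 in PC3 (SD, n = 3), 2.15 ± 0.20 in DU145 (SD, n = 2) and 1.53 ± 0.40 in SAS (SD, n = 3). Each of these overlapped the next except DU145 and SAS, whose difference of 0.62 did not pass the test (SE 0.65, limma adjusted p 0.517, and 0.556 with the PC3 controls as 1 sample).

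On the 8-array design 1 of 10 genes differed between the 4 lines, beside 36% of all 22514 names. This was XBP1 (F test, limma adjusted p 0.0418), with 5.04 ± 0.41 in 786O (SD, n = 3), 4.58 in A498, 4.27 ± 0.04 in DU145 (SD, n = 2) and 3.57 ± 0.29 in PC3 (SD, n = 2). It was higher in 786O than in PC3 by 1.47 (SE 0.30, limma adjusted p 0.0168). Leaving out either PC3 array, either DU145 array or either CXCL10 array ended this call.

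**Figure D5:**
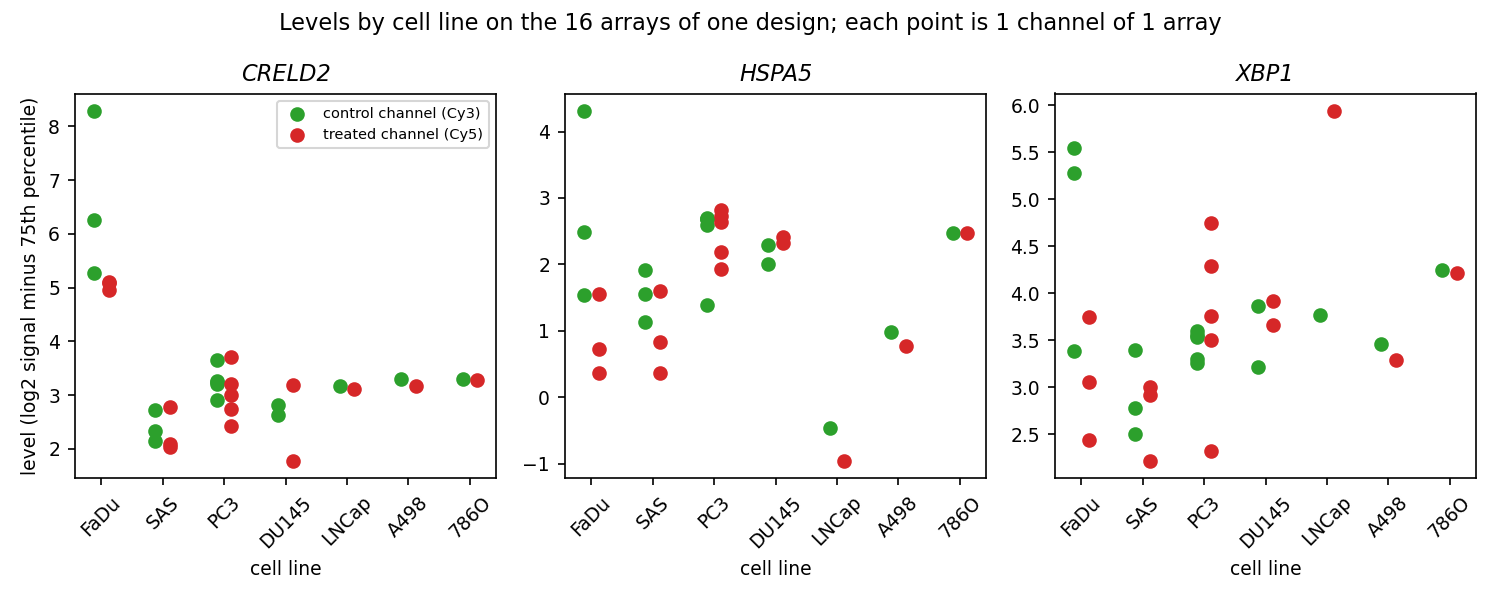
Level of CRELD2, HSPA5 and XBP1 (log2 signal minus the 75th percentile of the channel, vertical axis) by cell line on the 16 arrays of one design, with 1 point for each control channel (green) and each treated channel (red). All 6 FaDu points of CRELD2 (4.97 to 8.29) lay above those of the other lines, and both LNCap points of HSPA5 (-0.96 and -0.46) below those of the others.

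Pairwise correlations of the log2 ratios on the 16-array design depended in part on the miR-375 array. DNAJB9 and HERPUD1 were correlated at 0.96 over 16 arrays and at 0.94 over the 15 arrays without miR-375. For HSPA5 and HSP90B1 the values were 0.92 and 0.69, and for CRELD2 and HSPA5 0.80 and 0.12. DNAJB9 and EDEM1 were correlated at 0.25, and at -0.19 without that array. Some of these arrays share a slide and may share control RNA, so the correlations are descriptions.

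Among the 16627 names measured on all 16 arrays, the one whose ratios were most like the mean of the 10 genes was DNAJB11, an ER co-chaperone of HSPA5, with a Pearson correlation of 0.99 (0.96 without the miR-375 array). FKBP2, a prolyl isomerase of the ER, and NUCB2, a calcium-binding protein, followed among named genes with 0.92 and 0.91 (0.71 and 0.66 without that array). The other 7 of the 10 highest names were lincRNA probes within chr19:28262571-28296683 of hg19, with 0.72 to 0.79 without the miR-375 array. By rank (Spearman) over the 16 arrays they were at 0.23 to 0.42, against 0.92 for DNAJB11, 0.83 for FKBP2 and 0.70 for NUCB2. The log2 ratios of the lincRNA probes were -3.70 to -3.04 under miR-375, -2.0 to -1.44 under wogonin in FaDu and 0.88 to 1.25 under genistein in PC3. In SAS under wogonin they were at 0.16 to 0.37, where HERPUD1 was at -1.80. On the 8-array design DNAJB11 was correlated with the mean of the 10 genes at 0.65, FKBP2 at 0.10 and NUCB2 at 0.32.

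The ERSE and ERSE-II elements shown above were held by 37 further gene names, of which 24 were matched to the array by symbol and measured under miR-375. ERO1B, which the array calls ERO1LB, was not matched. It is missing from the counts and medians of this paragraph, although ERO1LB was lower past 1.0 under miR-375. There 10 of the 24 were lower past 1.0, beside 12.4% of all names, and 1 was higher, beside 10.2%, with a median log2 ratio of -0.54. The lowest of the 24 were FICD, which modifies HSPA5 by AMPylation (-2.78), CAMTA1 (-2.27) and HYOU1 (-2.22). SYNPO (-2.05), ALG12 (-1.88) and the lectin chaperone CALR (-1.63) followed, all named here after their values were seen. HYOU1 and CALR also belong to the ER folding list above. The 1 higher name was ZNF143 (1.09). Under wogonin 1 of 22 passed as lower, FICD (-0.95 in SAS and -1.78 in FaDu, limma adjusted p 0.0238), beside 1.1% of all names. The median was -0.16 against 0.09 for all names. Under genistein 1 of 22 rose, beside 4.72%, and 1 fell, beside 4.95%, with a median of -0.12 against 0.02 for all names.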

How the data were processed

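RNA of treated and control cells was hybridized on 24 Agilent arrays with 2 dyes, on 3 slides that were each scanned once. The authors deposited the scanner output, made with Agilent Feature Extraction 10.7.3.1 per the submitters' processing notes. The deposited columns hold the signal intensity of each spot in each dye and the log10 ratio of Cy5 over Cy3 after the software's background subtraction and dye normalization. The deposited value table held the same log10 ratios. The authors' column of p-values for single spots was not used. The number of arrays limits the precision.

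Control spots and outlier spots were dropped and saturated ones retained, and log10 ratios were turned into log2 ratios and averaged over the spots of a probe. A probe was well above background when at least 0.5 of its spots were. The brightest probe stood for a gene name, and a name was tested when well above background in at least 1 channel on every array of the comparison. Groups came from the labels. Ratios were tested against 0 with lmFit and eBayes of limma 3.58.1 in R 4.3.3, with all arrays of a design in 1 fit and Benjamini-Hochberg adjustment over all names at 0.05. With 1 array for each line and treatment, these p-values rest on the spread between arrays of different lines or times. That spread was pooled over all treatments of the design with several arrays, so it is not the spread of 1 treatment. Single arrays were read at a log2 ratio past 1.0. Control levels, as log2 Cy3 intensity minus the 75th percentile, were compared between lines by a moderated F test, and the 3 PC3 controls that agreed closely were counted as 1 sample in means and SDs and as 3 in the fit, with their average as 1 sample in an alternative fit. The fit was tested on simulated data.

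Alternatives were normexp (offset 50) or no background correction with loess, median centring, subtracting the mean of other treatments on the design or slide, other filters on dim probes, the mean of probes, fits on the own arrays, calls by size (0.5) and leaving out each array. The text names the 10 genes on every array, the tested genes with the largest ratios of each ER and stress list (at most 3 for each comparison), and the 10 names most correlated with the mean of the 10 genes. The genes and lists were chosen with earlier results of these data known. Promoters were those of RefSeq on GRCh38.p14. Probe coordinates are those of the array annotation on hg19.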

Additional observations from a re-analysis of the deposited data

How the results depend on the processing

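All 10 genes stayed lower past 1.0 under miR-375 in each of the 9 alternatives run. These all reprocess the same 1 array, and some of them could not change the result. The probes read for these genes were well above background in both channels of all arrays. Filters on dim probes thus had none of them to drop, and a looser size limit could only keep the calls. No value of a single gene called, nor that of XBP1 under miR-145, changed sign under any alternative. Of the headline counts of genes called, 286 stayed within 1.5 times the reported count over all alternatives, 28 were higher and 25 lower. Of the other counts followed, 180 stayed the same by that measure, 6 were higher and 26 lower. Leaving out 1 array of genistein, si-LAMB3 or wogonin left a single array of that treatment, so no count is given for it. With limma, 2 genes rose under genistein, and 4 did when the mean of the other treatments on the design or the slide was subtracted. There was 1 with no filter on dim probes or with the mean of probes, and 0 when only the genistein arrays were fitted. None fell under genistein, and 1 did with no background correction or by size on every array. Under miR-145, 0 genes rose, and 1 did with normexp, with no background correction or when both channels had to be above background, 4 and 5 when the mean of the design or slide was subtracted, and 0 to 1 when 1 array was left out. Under si-LAMB3, 1 fell, and 0 did after subtracting the mean of the design or slide or fitting only its arrays, and 3 by size. Under wogonin, 3 passed as lower, and 1 did with no filter and 0 with only its arrays. SDF2L1 under wogonin also missed the threshold after subtracting the mean of the design (-0.85, limma adjusted p 0.143).

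On single arrays, 1 gene was lower under miR-23b, and 0 after subtracting the mean of the design or slide and 3 at a limit of 0.5. Under miR-24, 1 was lower, and 2 were with normexp or no background correction, 0 after subtracting the slide mean and 3 at 0.5, while 0 were higher and 1 was after subtracting the slide mean or at 0.5. Under miR-29a, 1 was lower, and 0 after subtracting the mean of the design or slide and 6 at 0.5, while 0 were higher and 1 was after subtracting the design mean or at 0.5. On the 8-array design no gene fell by limma's adjusted p, and with normexp 1 did under miR-143 and 3 under si-GOLM1 (2 with no background correction); the unadjusted counts stand in the report. The slide mean was not run there, since that design has 1 slide. Control levels differed between lines for 3 genes on the 16-array design, for 5 without the miR-375 array (an alternative chosen after seeing the data) and for 1 to 9 when 1 array was left out. On the 8-array design they differed for 1 gene, for 0 with no filter, for 2 with the mean of probes and for 0 to 2 when 1 array was left out. The cause of these shifts was not tested. No paired analysis was possible because every line and treatment has 1 array and treated and control RNA already share it. Dye bias cannot be told apart from treatment without dye swaps.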
